A study of Mus musculus with 5 samples.

Results

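The 10 genes described here code for the lineage factor and the surface receptors by which regulatory T cells are usually recognised: Foxp3, Ikzf2, Ikzf4, Il2ra, Nrp1, Tnfrsf4, Tnfrsf9, Tnfrsf18, Ccr8 and Izumo1r. They were taken by gene symbol from the feature lists of the count matrices, and all 10 of them were found among the 31053 genes listed. All mice were C57BL/6. One droplet library pooled CD44-high, antigen-experienced T cells from the mediastinal lymph nodes, which drain the heart, of mice of 2, 6, 12 and 18 months, with T cell receptor sequences from the same cells. The cells of this pool carried 8 hashtag antibodies (Hashtag1 to Hashtag8), 1 for each sorted condition. Which hashtag belonged to which age was not stated; hashtags therefore served as separate cell samples and were never read as ages. Non-cardiomyocyte cells of the heart were loaded as 1 library at 18 months and 1 at 2 months of age, each with cells of 2 hashtags (Hashtag11 and Hashtag12 at 18 months, Hashtag09 and Hashtag10 at 2 months). With 1 library per age there is no test between ages in the heart. How many mice stood behind a hashtag is not given in the labels. The lymph node library read the 5′ ends of transcripts and the heart libraries the 3′ ends, so levels are not compared between the organs.

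Regulatory T cells are CD4 T cells that restrain other immune cells. Foxp3, a forkhead factor, keeps their programme in place, with the Ikaros family zinc finger factors Ikzf2 (Helios) and Ikzf4 (Eos) as partners. Interleukin-2 reaches them through the high-affinity receptor that contains Il2ra (CD25), and this signal runs through STAT proteins. Tnfrsf4 (OX40), Tnfrsf9 (4-1BB) and Tnfrsf18 (GITR) are costimulatory receptors of the tumour necrosis factor family that signal largely to NF-kB. Nrp1 is a coreceptor for semaphorins and vascular endothelial growth factor, Ccr8 a chemokine receptor of tissue and tumour regulatory T cells, and Izumo1r, the mouse gene of folate receptor 4, marks regulatory and anergic CD4 T cells. None of these receptors belongs to regulatory T cells alone. Activated T cells and group 2 innate lymphoid cells (ILC2), which lack a T cell receptor and make type 2 cytokines in tissues, carry several of them.

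Promoter windows are shown for the members whose window holds a match to a STAT or NF-kB motif, since these are the signals of the receptors listed. RefSeq windows of 300 bases (250 before to 50 after a start, GRCm38.p6) were at hand for 8 of the 10 members, with 2 windows each for Foxp3 and Tnfrsf9. Capitals mark the matches, and the windows run 5′ to 3′ on the plus strand. The second Foxp3 window lies at chrX:7580233-7580532, the second Tnfrsf9 window at chr4:150927749-150928048 and the Tnfrsf18 window at chr4:156026072-156026371.
Foxp3: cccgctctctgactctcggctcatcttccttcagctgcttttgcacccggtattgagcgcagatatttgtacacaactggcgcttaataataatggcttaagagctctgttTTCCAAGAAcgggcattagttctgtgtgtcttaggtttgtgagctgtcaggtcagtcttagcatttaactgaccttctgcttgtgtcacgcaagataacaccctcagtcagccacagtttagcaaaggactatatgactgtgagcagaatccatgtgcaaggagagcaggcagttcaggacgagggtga
Tnfrsf9: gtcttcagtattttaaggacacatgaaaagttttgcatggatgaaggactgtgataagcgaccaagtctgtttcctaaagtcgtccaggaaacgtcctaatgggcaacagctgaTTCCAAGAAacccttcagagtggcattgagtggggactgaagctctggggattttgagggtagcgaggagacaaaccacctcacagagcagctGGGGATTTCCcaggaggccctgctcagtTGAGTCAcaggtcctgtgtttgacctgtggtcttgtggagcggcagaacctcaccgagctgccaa
Tnfrsf18: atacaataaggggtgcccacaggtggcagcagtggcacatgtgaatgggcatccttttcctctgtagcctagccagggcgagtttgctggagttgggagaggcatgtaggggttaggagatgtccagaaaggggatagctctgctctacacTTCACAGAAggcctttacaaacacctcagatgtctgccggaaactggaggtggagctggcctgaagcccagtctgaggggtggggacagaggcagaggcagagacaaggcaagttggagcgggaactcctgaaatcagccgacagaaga

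The STAT motif TTCNNNGAA was in 3 of the 10 member windows, as TTCCAAGAA for Foxp3 and Tnfrsf9 and as TTCACAGAA for Tnfrsf18, and in 8.30% of all 32851 windows. An NF-kB motif of 10 letters was in 1 of the 10, the Tnfrsf9 window, as GGGGATTTCC, and in 1.63% of all windows. The AP-1 motif TGANTCA was in 1 of the 10, again the Tnfrsf9 window, as TGAGTCA, and in 7.81% of all windows. The forkhead motif TGTTTAC was in none of the 10 member windows and in 3.65% of all windows. Both strands were searched, and the STAT and AP-1 motifs read the same on either strand. A match is a description of the letters, not of a bound site.

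The lymph node pool held 12804 barcodes after filters. Of these, 3665 (28.6%) carried more than 1 hashtag and 529 none, and were left out. The 7173 T cells that remained had a median of 2887 UMIs (unique transcript molecules), and 5901 (82.3%) of them had a receptor sequence. T cell markers or a receptor were required of each cell. A CD4 gate (a Cd4 UMI and no Cd8a or Cd8b1 UMI) kept 1787 cells, and a CD8 gate (the converse) 2859. The heart libraries held 7816 cells at 18 months, with a median of 4371 UMIs, and 10910 at 2 months, with a median of 8033. Clusters with cardiomyocyte markers made up 146 cells at 18 months and 687 at 2 months, against the label of the preparation. The 2 heart libraries shared 42 cell barcodes, the lymph node and 2-month heart libraries 7, and the lymph node and 18-month heart libraries 0.

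Foxp3 itself was counted in 335 of the 1787 CD4-gated lymph node cells, which is 18.7% (95% Clopper-Pearson interval 17.0 to 20.6). The intervals of counts and shares throughout cover counting error only. By hashtag, the share was 17.9% in Hashtag1, 34.0% in Hashtag2, 25.3% in Hashtag3 and 29.8% in Hashtag4. It was 23.1% in Hashtag5, 19.6% in Hashtag6, 6.85% in Hashtag7 and 14.3% in Hashtag8. Hashtag7 stood lowest, with an interval of 4.39 to 10.1% that reached none of the intervals of the other 7 hashtags. Hashtag7 also held the largest share of its receptor-bearing T cells in clonotypes of at least 2 cells, 47.3%, against 9.96% to 36.1% in the other 7. The part of clonotype size in the share of Hashtag7 was not tested. In cells where Foxp3 should be absent, a Foxp3 UMI was found in 92 of 2859 CD8-gated cells (3.22%, median 4315 UMIs per cell) and in 1 of 444 B cells (0.225%, median 3540.5). The CD4-gated share was 10.0% when 2 Foxp3 UMIs were required and 10.4% when each cell was thinned to 1000 UMIs; the CD8-gated share was then 1.41%.

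All 9 other members were higher in Foxp3-positive than in Foxp3-negative CD4-gated cells. The UMIs of each kind of cell were summed per hashtag and tested across 8 hashtags with edgeR's quasi-likelihood test, with the hashtag as a block and Benjamini-Hochberg adjustment over 4410 genes. Of all genes, 5.46% were called at an adjusted p under 0.05, 3.4% higher and 2.06% lower, and 9 of 9 members were called higher. The median log2 ratio, positive over negative, was 1.58 for the members and -0.0038 for all genes tested. Foxp3, Cd4, Cd8a and Cd8b1 chose the cells and were given no test. A cell without a Foxp3 UMI may still have held Foxp3 mRNA, since the median cell had 3528 UMIs on the positive side and 3283 on the negative side. Levels below are CPM, the UMIs of a gene scaled to a fixed UMI total of the summed cells, given as the lowest, median and highest hashtag. How many of all genes had hashtag ranges without overlap was not counted.

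Among the factors, Ikzf2 was at 528, 638 and 811 CPM in Foxp3-positive cells, against 187, 269.9 and 351 CPM in Foxp3-negative cells. The lowest positive hashtag lay above the highest negative one, and the log2 ratio was 1.31 (SE 0.11, edgeR adjusted p = 1.9e-07). An Ikzf2 UMI was present in 78.2% of positive and 39.0% of negative cells. Ikzf4 was at 43.7, 110.2 and 174 CPM in positive cells, against 9.63, 30.8 and 49.4 CPM in negative cells. Here the ranges overlapped only because the positives of Hashtag8 lay under the negatives of Hashtag2, and the log2 ratio was 2.00 (SE 0.18, edgeR adjusted p = 4.3e-07). The share of cells with an Ikzf4 UMI was 33.4% of positive against 7.23% of negative cells.

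Il2ra, the interleukin-2 receptor chain that sets high affinity, was at 91.4, 188 and 389 CPM in Foxp3-positive cells and at 1.78, 39.7 and 96.0 CPM in Foxp3-negative cells. Every hashtag was higher on its positive side, and the ranges overlapped between Hashtag2 negatives and the positives of Hashtag7 and Hashtag8. The log2 ratio was 2.34 (SE 0.21, edgeR adjusted p = 6.2e-07), and the share of cells with a UMI was 35.5% of positive against 6.34% of negative cells. Genes of interleukin-2 signalling were read beside it: 4 of the 9 tested (11 listed) were called higher, none lower, with a median log2 ratio of 0.33. These were the shared receptor chain Il2rb (0.62), the kinase Jak3 (0.50) and the feedback inhibitors Socs1 (0.52) and Cish (1.19). Stat5a and Stat5b, the transcription factors of the pathway, had ratios of 0.33 and 0.27 that missed the threshold.

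The 3 costimulatory receptors were higher in positive cells of all 8 hashtags. Tnfrsf4 was at 439.9, 763 and 1371 CPM in Foxp3-positive cells, against 164, 249 and 445 CPM in negative cells, a log2 ratio of 1.58 (SE 0.18, edgeR adjusted p = 9.5e-06). Its ranges met only through Hashtag1 positives and Hashtag8 negatives. Tnfrsf9 was at 275, 382 and 543 CPM in positive cells, against 40.1, 127 and 274 CPM in negative cells, a log2 ratio of 1.65 (SE 0.19, edgeR adjusted p = 8.1e-06). Tnfrsf18 was at 263, 430.3 and 708 CPM in positive cells, against 129.6, 172 and 249.9 CPM in negative cells, a log2 ratio of 1.28 (SE 0.14, edgeR adjusted p = 7.1e-06). The ranges of Tnfrsf18 did not overlap, and those of Tnfrsf9 only just did not, at 274.7 against 274.3 CPM. In all T cells without a Cd8 UMI, the ranges of Tnfrsf9 and Ccr8 overlapped. Those of Il2ra, Tnfrsf4 and Izumo1r did not overlap there. In shares of cells with a UMI, positive against negative, Tnfrsf4 was at 70.7% against 38.4%, Tnfrsf9 at 45.4% against 16.4% and Tnfrsf18 at 73.1% against 41.4%. Of their ligands and signalling partners (11 listed, 7 tested), 0 were called in either direction by edgeR, with a median log2 ratio of 0.34. The 7 included Traf1, Traf2, Traf5, Nfkb1, Nfkb2, Relb and Birc3; the ligand genes Tnfsf4, Tnfsf9 and Tnfsf18 were too low to test.

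Ccr8 had the highest edgeR log2 ratio of the members, 2.47 (SE 0.34, edgeR adjusted p = 7.7e-05). Median hashtag log2 ratios of CPM + 1 were 2.47 for Il2ra and 2.42 for Ccr8, so the order of these members is not settled. Ccr8 had the following levels. It was at 55.0, 149 and 343 CPM in Foxp3-positive cells, against 3.56, 32.2 and 50.5 CPM in negative cells, without overlap. A Ccr8 UMI was present in 28.4% of positive and 6.13% of negative cells. Izumo1r was at 862, 1345 and 1679.6 CPM in positive cells, against 352, 865 and 1015 CPM in negative cells. Every hashtag was again higher on its positive side, the ranges overlapped, and the log2 ratio was 0.71 (SE 0.14, edgeR adjusted p = 0.0036). Izumo1r UMIs were found in 89.3% of positive cells and also in 62.3% of negative cells.

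Nrp1 had the lowest edgeR log2 ratio of the members. By the median hashtag log2 ratio of CPM + 1, Izumo1r (0.48) lay below Nrp1 (0.68). Nrp1 was at 149, 249 and 404 CPM in Foxp3-positive cells, against 102, 173 and 208.5 CPM in negative cells. Positive cells were higher in 7 of 8 hashtags, and in Hashtag5 they were at 176 CPM against 208.5 CPM in negative cells. The log2 ratio was 0.60 (SE 0.15, edgeR adjusted p = 0.0245). This call was lost without Hashtag1, Hashtag2, Hashtag4, Hashtag6 or Hashtag7, where the adjusted p lay between 0.0514 and 0.0797. Its binding partners Sema3a, Sema4a, Vegfa, Plxna1 and Plxna4 and the Ccr8 ligands Ccl1 and Ccl8 were too low to test.

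**Figure D1:**
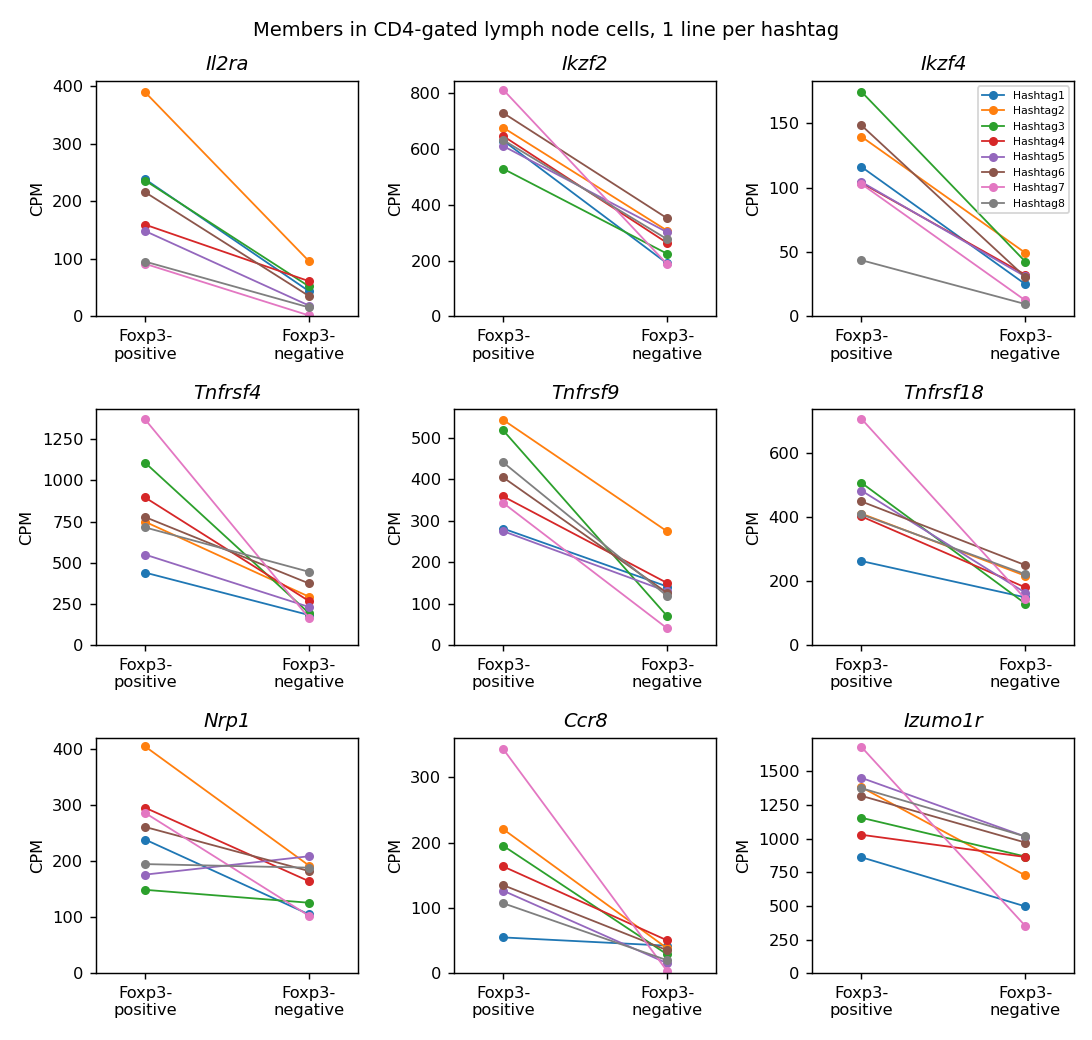
Level of the 9 members other than Foxp3 in CD4-gated lymph node cells, in CPM, with Foxp3-positive cells on the left and Foxp3-negative cells on the right of each panel. Each line joins the 2 values of 1 hashtag, and all lines fall to the right except Nrp1 in Hashtag5. The points of the sides do not overlap for Ikzf2, Tnfrsf18, Ccr8 and, at 274.7 against 274.3 CPM, Tnfrsf9.

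The same test over all 7173 T cells, where CD8 cells joined the negative side, called 20.3% of 8474 genes, 10% higher and 10.2% lower, in the 885 Foxp3-positive cells. All 9 members were again called higher by edgeR, with log2 ratios between 1.65 for Nrp1 and 3.05 for Il2ra. The ratio of Izumo1r was 1.71 over all T cells and 0.71 within the CD4 gate, and that of Nrp1 1.65 and 0.60. Of the 885 positive cells, 335 were in the CD4 gate and 147 carried a Cd8 UMI. The 2 fits thus differed in their cells on both sides, and the difference between them was not tested.

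Part of the wider regulatory programme rose with the members. Of 29 other listed genes, 18 were tested and 8 were called higher, none lower, with a median log2 ratio of 0.59 against -0.0038 over all genes. The 8 were the inhibitory receptors Ctla4 (1.88) and Tigit (0.76), the costimulator Icos (0.52), the ectoenzyme Nt5e (0.67), Cd83 (1.54), the actin-capping protein Capg (1.31), the receptor Tnfrsf1b (1.53) and the chemokine receptor Ccr6 (1.26). Batf, an activation factor, had a ratio of 0.66 at an edgeR adjusted p of 0.0527. Cxcr3 (-0.56), Lag3 (-0.47) and Pdcd1 (-0.36) of the same list lay lower without being called. The gene lists were chosen with earlier results of these data known, so their counts give no separate support. Of 10 genes of resting T cells, 9 were tested and 3 fell: Tcf7 by 1.36, Klf2 by 0.72 and Ccr7 by 0.57 on the log2 scale. In the Ikaros family, Ikzf3 (0.59) rose and Ikzf1, the founding member, fell by 1.07.

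By rank among all other genes called, the highest log2 ratios were those of Rln3 (2.08), the decoy receptor Il1r2 (2.00), Coro2a (1.99), Ctla4, the receptor chain Tgfbr1 (1.71), the tetraspanin Cd81 (1.68), Bmyc (1.57), Cd83, Tnfrsf1b and Ecm1 (1.44). The 5 lowest were Tnfsf8 (-2.51), the chemokine Ccl5 (-2.41), the bone morphogenetic protein antagonist Sostdc1 (-2.36), Cd40lg (-2.19), which gives help to B cells, and the chemokine receptor Cxcr6 (-2.14).

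Within Foxp3-positive cells, the members were found together unevenly. After thinning to 1000 UMIs, 648 positive cells without a Cd8 UMI remained, and 64 of them held a Ccr8 UMI. Tnfrsf4 was detected in 67.2% of the cells with Ccr8, against 38.5% of the 584 without it. Tnfrsf9 was detected in 43.8% against 18.0% and Tnfrsf18 in 46.9% against 33.0%. Il2ra, at 15.6% against 16.3%, and Izumo1r, at 65.6% against 65.8%, lay close together on the Ccr8 split. Splitting by Tnfrsf4 instead, Tnfrsf9 was at 31.3% with a Tnfrsf4 UMI against 12.9% without. These cells come from 1 library and are given as a description.

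Cells of expanded clonotypes were less often Foxp3-positive. A clonotype is a set of cells with the same receptor, and it was called expanded with at least 2 cells in a hashtag and single with 1. Over the pool, 23 of 334 CD4-gated cells of expanded clonotypes held a Foxp3 UMI, 6.89% (interval 4.42 to 10.2), against 294 of 1261 single-clonotype cells, 23.3% (21.0 to 25.7). In clonotypes of at least 3 cells it was 10 of 210 (4.76%). These intervals count cells of 1 clonotype as separate cells. Hashtag7, with the lowest Foxp3 share, held 128 of the 334 expanded and 172 of the 1261 single cells, so the pooled gap also mixes hashtags. Hashtag3 gave 4.17% in expanded against 29.4% in single clonotypes, Hashtag4 16.0% against 33.9% and Hashtag5 20.8% against 27.2%. Hashtag6 gave 8.33% against 24.1%, Hashtag7 1.56% against 11.05% and Hashtag8 9.41% against 17.0%. All 6 hashtags with at least 10 cells per class were lower in expanded clonotypes, by 13.7 percentage points on average. The two-sided exact sign-flip permutation test over 6 hashtags gave p = 0.03125, the smallest it can give. Hashtag1 and Hashtag2 had 0 positive cells among 9 and 3 cells of expanded clonotypes.

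**Figure D2:**
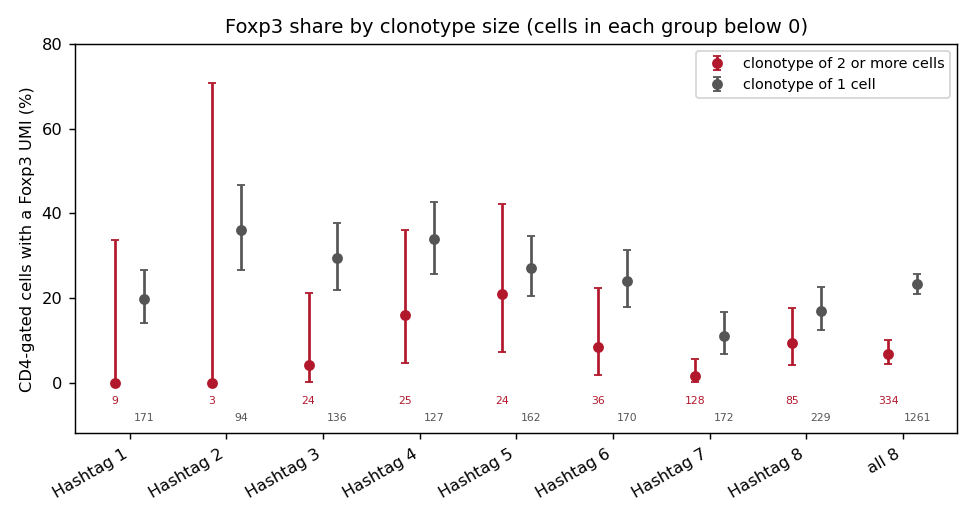
Share of CD4-gated lymph node cells with a Foxp3 UMI, in percent, in clonotypes of 2 or more cells (red, left of each pair) and of 1 cell (grey), by hashtag and over all 8, with 95% Clopper-Pearson intervals and the number of cells under each point. The share over all hashtags was 6.89% in expanded and 23.3% in single clonotypes.

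Expanded Foxp3-positive clonotypes were small. Of 741 clonotypes with a Foxp3-positive cell, counted within a hashtag, 685 had 1 cell and 56 had more; 16 held at least 2 positive cells and 11 were positive in all their cells. No clonotype had positive cells in more than 1 hashtag. The clonotype with the most positive cells had 4, which were all 4 of its cells in Hashtag8, none with a Cd8 UMI. The 5 T cells kept of this clonotype include 1 of another hashtag, without a Foxp3 UMI. Its receptor is shown as the one with the strongest evidence for expansion within Foxp3-positive cells. It joined TRAV4D-4 to TRAJ12 and TRBV10 to TRBJ2-7, and its CDR3 regions, which make most of the contact with antigen and are 36 bases long each, were as follows.
TRA: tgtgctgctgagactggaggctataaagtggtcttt
TRB: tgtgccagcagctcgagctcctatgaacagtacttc

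Il2ra was lower in Foxp3-positive cells of expanded clonotypes. In the CD4 gate, the 23 expanded cells had 4 Il2ra UMIs (50.6 CPM), against 275 UMIs (199 CPM) in the 294 single cells. No hashtag had 10 such cells in each class, so the planned test could not be fitted. A wider gate of T cells without a Cd8 UMI, with at least 5 cells per class, was chosen after seeing this and gave 5 hashtags. In it, Il2ra was at 69.8 CPM in expanded against 184 CPM in single clonotypes of Hashtag4, at 109 against 164 in Hashtag5 and at 0 against 227 in Hashtag6. It was at 122 against 221 CPM in Hashtag7 and at 30.4 against 205 CPM in Hashtag8. The expanded side held only 8, 12, 9, 7 and 21 Foxp3-positive cells in Hashtag4 to Hashtag8, some of them from the same clonotype. Expanded clonotypes were thus lower in all 5 hashtags, and the edgeR log2 ratio was -1.94 (SE 0.45, adjusted p = 0.0268). Of 1878 genes, 2.08% were called, 1.7% lower and 0.373% higher. Leaving out Hashtag8 ended the call, with a ratio of -1.41 (edgeR adjusted p = 0.393), as did leaving out Hashtag6, with -1.69 (0.0652). DESeq2 gave a ratio of -1.84 and no adjusted p.

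The other members were not called by this edgeR fit, though Tnfrsf4 was called without Hashtag4 (0.65, edgeR adjusted p = 0.0388) and Izumo1r with no filter on low counts (-0.85, edgeR adjusted p = 0.000821). Ikzf4 had a log2 ratio of -1.58 (adjusted p = 0.225), Izumo1r -0.40 (0.258) and Tnfrsf4 0.56 (0.108). Ikzf2, Nrp1, Tnfrsf9, Tnfrsf18 and Ccr8 lay between 0.09 and 0.18. In the CD4 gate, Tnfrsf4 was at 861 CPM in expanded against 803 CPM in single positive cells, Tnfrsf9 at 532 against 392 and Ccr8 at 215 against 152, and Ikzf4 at 25.3 against 116. The 39 genes called included Igkc, an immunoglobulin gene of B cells, at a log2 ratio of 1.67; it is named after its value was seen, and its part in the result was not tested.

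In Foxp3-negative CD4-gated cells no member was called between expanded and single clonotypes. Over 6 hashtags, 0.0535% of 5608 genes were called, all lower: Igfbp4, Trbv16 and Ccr7. Of the 7 members tested, 0 were called by edgeR (342 of all genes had an unadjusted p under 0.05, and DESeq2 called 5), and Il2ra and Ccr8 were too low to test. Nrp1 came nearest at a log2 ratio of -0.91 (edgeR adjusted p = 0.321), with 84.3 CPM in expanded against 176 CPM in single clonotypes over the pool, and was called with no filter on low counts (-0.98, edgeR adjusted p = 0.00147). The difference of the expanded-against-single ratio between positive and negative cells was also fitted, in the wider gate. It called 0.0563% of 5327 genes and no member, or Izumo1r with no filter on low counts (-0.84, edgeR adjusted p = 0.0331); Il2ra had -1.86 with an unadjusted p of 0.0438 and an edgeR adjusted p of 0.629. A lower Il2ra in expanded clonotypes was therefore not shown to differ between Foxp3-positive and Foxp3-negative cells.

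In the heart, Foxp3 was scarce. T cells were 307 (3.93%) of the cells at 18 months and 276 (2.53%) at 2 months, from a cluster led by Cd3d and one led by Trdc, a gamma delta receptor gene. A Foxp3 UMI was found in 2 of 307 T cells at 18 months, 0.651% (interval 0.0790 to 2.33), and in 12 of 276 at 2 months, 4.35% (2.27 to 7.47). In heart B cells, which should lack the gene, it was found in 0 of 1001 at 18 months (which at a floor of 3 counts allows up to 0.300% of cells with a UMI) and in 1 of 973 at 2 months. The level was 4.29 CPM at 18 months and 17.1 CPM at 2 months, with a counting interval of -3.25 to -0.90 for the log2 ratio, and 8 of the 9 UMIs at 18 months came from 1 cell of Hashtag12. By hashtag it was 0.99 and 8.70 CPM at 18 months, against 18.0 and 5.13 CPM at 2 months, so the hashtags of the ages overlapped. With a cluster of T cell and macrophage markers kept among the T cells, a Foxp3 UMI was in 3 of 507 cells at 18 months and 21 of 425 at 2 months. A gate of at least 2 UMIs of Cd3d, Cd3e and Cd3g gave 3 of 645 and 25 of 486 cells. With 1 library per age these are values of 2 libraries, with no replicate check.

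T cells with a Foxp3 UMI in the heart carried Ikzf2, Tnfrsf4, Tnfrsf18, Izumo1r and Il2ra. Values of Ikzf4, Nrp1, Tnfrsf9 and Ccr8 are not given for these cells. Over both libraries, these 14 cells had 1125 CPM of Ikzf2, 731 of Tnfrsf4, 471 of Tnfrsf18, 183 of Izumo1r and 154 of Il2ra. The 569 T cells without a Foxp3 UMI had 92.9 CPM of Ikzf2, 24.7 of Tnfrsf4, 77.3 of Tnfrsf18, 31.4 of Izumo1r and 29.6 of Il2ra. Ikzf2 was detected in all 14 positive cells, against 26.0% of the others. The B cell gene Cd79a was at 250 CPM in the 14 cells, against 45.4 CPM in the 569. One of the 14 carried 2 hashtags, and without it Cd79a was at 12.9 CPM. The remaining 13 had 1357 CPM of Ikzf2, 801 of Tnfrsf4, 478 of Tnfrsf18, 194 of Izumo1r and 116 of Il2ra. Within T cells with a Cd4 and no Cd8 UMI, a Foxp3 UMI was found in 1 of 62 cells at 18 months and in 11 of 86 at 2 months.

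Between the ages, 5 of the 10 members passed a fold of 1.5 in heart T cells with a counting interval that left out 0. Of the 9090 genes with at least 20 UMIs over both libraries, 9.1% did so (5.68% higher, 3.42% lower). Ccr8, with 2 and 3 UMIs, lay under that limit. The 4 that were lower at 18 months were Foxp3, Tnfrsf9, Izumo1r and Ikzf2. Besides Foxp3, Tnfrsf9 was at 3.81 CPM at 18 months against 20.8 CPM at 2 months (log2 -2.45, interval -3.75 to -1.33). With the cluster of T cell and macrophage markers kept among the T cells, Tnfrsf9 had a log2 ratio of -0.56 and no longer passed the fold. Izumo1r was at 17.2 against 55.1 CPM (-1.68, -2.27 to -1.12) and Ikzf2 at 86.7 against 155 CPM (-0.84, -1.11 to -0.57). Most of these differences rest on Hashtag09, which held 212 of the 276 T cells at 2 months. Izumo1r was at 18.8 and 17.4 CPM in the 18-month hashtags, against 64.7 CPM in Hashtag09 and 12.8 CPM in Hashtag10. Ikzf2 was at 95.2 and 73.9 CPM, against 166 and 94.8 CPM, and Tnfrsf9 at 2.97 and 4.35 CPM, against 26.7 and 0 CPM. Set against Hashtag10 alone, Izumo1r was higher in both 18-month hashtags, with intervals that held 0. Tnfrsf4 and Tnfrsf18 passed the fold as higher in both. Hashtag10 had only 5 UMIs of Izumo1r, 3 of Tnfrsf4 and 17 of Tnfrsf18.

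Il2ra went the other way in heart T cells, at 39.1 CPM at 18 months against 26.0 CPM at 2 months (log2 0.59, interval 0.06 to 1.13). This rested on the Trdc cluster, which held 43 cells at 18 months and 14 at 2 months, with Il2ra at 197 and 163 CPM and a UMI in 32 of the 43 and 7 of the 14 cells. Without it, Il2ra was at 12.8 CPM at 18 months and 18.6 CPM at 2 months, a log2 ratio of -0.54. Foxp3 was at 0 in the Trdc cluster. The other members did not pass the fold: Tnfrsf4 was at 40.5 against 45.7 CPM, Tnfrsf18 at 83.9 against 91.4, Nrp1 at 44.3 against 34.8, Ikzf4 at 5.24 against 5.71 and Ccr8 at 0.95 against 1.56 CPM, 18 against 2 months. The 2 and 3 Ccr8 UMIs behind the last values leave its level in heart T cells near the floor of 3 counts.

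ILC2 of the heart carried part of the same receptor set without Foxp3. There were 107 such cells at 18 months (1.37%) and 80 at 2 months (0.733%), led by Arg1, Gata3, Csf2 and Il1rl1. Foxp3 and Izumo1r had 0 UMIs in both, which at a floor of 3 counts allows a share of cells with a UMI of up to 2.80% at 18 months and 3.75% at 2 months. Tnfrsf18 was at 328 CPM at 18 months and 271 CPM at 2 months, in 73.8% and 77.5% of the cells. Il2ra was at 199 and 185 CPM, in 73.8% and 61.3% of the cells. Ikzf2 was at 150.3 and 118 CPM, and Ccr8 at 60.4 and 80.6 CPM, in 29.0% and 33.8% of the cells. Tnfrsf4, Tnfrsf9 and Ikzf4 had between 1 and 7 UMIs in each library.

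Of the members, 1 passed the same fold rule in ILC2. Among 6455 genes with at least 20 UMIs over both libraries, 9.48% did so (3.01% higher, 6.48% lower). Foxp3, Izumo1r, Tnfrsf4, Tnfrsf9 and Ikzf4 lay under that limit and could hardly pass. Nrp1 was at 26.0 CPM at 18 months against 60.9 CPM at 2 months (log2 -1.23, interval -2.07 to -0.41), and the ratio was -0.59 (-1.30 to 0.12) with Scrublet doublets kept. Free RNA alone was estimated to give 10.5 and 13.9 CPM of Nrp1. Hashtag09 held 26 of the 34 Nrp1 UMIs at 2 months, and the hashtags were at 30.1 and 18.4 CPM at 18 months, against 94.5 and 29.6 CPM at 2 months. The log2 ratios of Tnfrsf18 (0.28), Il2ra (0.11), Ikzf2 (0.35) and Ccr8 (-0.42) had intervals that held 0. Under a gate on UMIs in place of clusters, all of these passed the fold as higher at 18 months. The log2 ratios were 1.32 for Tnfrsf18, 1.65 for Il2ra, 1.10 for Ikzf2 and 0.96 for Ccr8. That gate took in cells outside the ILC2 cluster, with 244 cells at 18 months and 324 at 2 months. In it, Il2ra was at 55.6 and 17.7 CPM and Nrp1 at 104 and 161 CPM. Within the ILC2 cluster, cells with and without a Ccr8 UMI (58 and 129 over both libraries) lay close together in Il2ra, at 196 and 192 CPM. In Ikzf2 they were at 149 and 132 CPM.

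**Figure D3:**
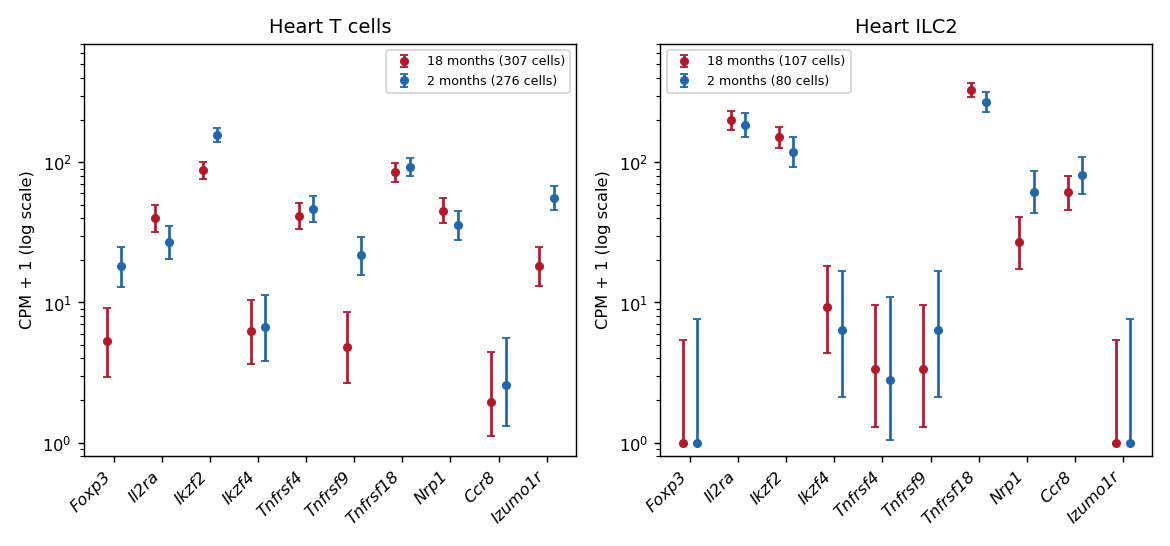
Level of the 10 members in heart T cells (left) and ILC2 (right) at 18 months (red) and 2 months (blue), as CPM + 1 on a log axis, with exact Poisson 95% intervals. Foxp3, Tnfrsf9, Izumo1r and Ikzf2 were lower at 18 months in T cells, while ILC2 of both ages had Tnfrsf18 at 328 and 271 CPM and 0 UMIs of Foxp3 and Izumo1r.

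Across the other heart classes, Nrp1 was highest in endothelial cells, at 1478 CPM at 18 months and 1468 CPM at 2 months. Pericytes were at 515 and 459 CPM, and endocardial cells had 613 CPM at 18 months and 89.8 CPM at 2 months (148 and 50 cells). The spread over mice is not known for any of these. Tnfrsf9 was highest in NK cells, at 41.5 and 64.2 CPM (74 and 30 cells), which also had Tnfrsf18 at 89.0 and 188.5 CPM. Pericytes had Il2ra at 41.1 and 68.4 CPM, with a UMI in 14.8% and 31.4% of the cells, and free RNA was estimated to give 0.589 and 0.290 CPM. Mast cells at 18 months had Ikzf2 at 156 CPM on 35 cells. Tnfrsf4 and Izumo1r were highest in T cells in both libraries among the classes of at least 20 cells, and Ccr8 in ILC2.

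**Figure D4:**
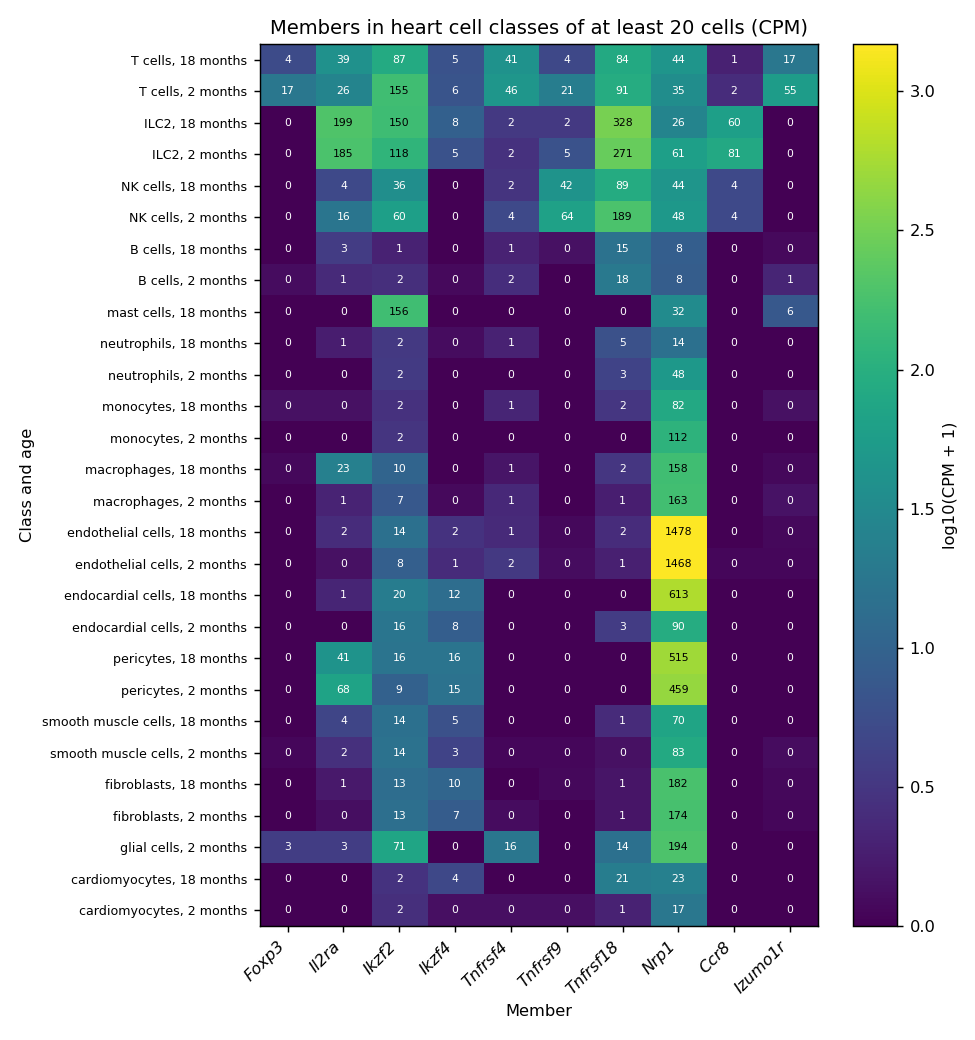
Level of the 10 members in each heart class of at least 20 cells, 18 months above 2 months, with the CPM written in each tile and the colour showing log10(CPM + 1). Foxp3, Tnfrsf4 and Izumo1r are seen in T cells, Ccr8 in ILC2, Tnfrsf18 in ILC2, NK cells and T cells, and Nrp1 in the vessel classes.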

How the data were processed

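For each library the authors deposited raw UMI counts of genes in cells; Cell Ranger 3.1.0 is named per the file headers. The submitters' processing notes give the builds mm10 and GRCm38. The deposited receptor files hold counts of UMIs per contig and of cells per clonotype, and a fraction of cells per clonotype made by the authors that was not used. Seurat 4.0.6 and the cell filters run here as alternatives come from the authors' deposited text. The members and gene lists were chosen with earlier results of these data known.

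Cells under 200 genes were dropped, as were those with over 10% (lymph node) or 15% (heart) mitochondrial UMIs. Hashtags were called by a 2-component Gaussian mixture on log counts. Lymph node T cells had 1 hashtag, a Cd3d, Cd3e or Cd3g UMI or a receptor, fewer than 2 UMIs of Cd79a, Cd79b and Ms4a1 together and fewer than 2 of Lyz2, C1qa and C1qb. Scrublet at an expected 8% marked 0 lymph node cells, so it did not work there and doublets were removed only as cells with several hashtags; it removed 219 heart cells at 18 months and 478 at 2 months. Heart cells were clustered together (Leiden, resolution 1, 2000 variable genes without the members, 30 components, 15 neighbours) and named by marker lists. A cluster of 200 and 149 cells with T cell and macrophage markers, of which 126 and 111 carried 2 hashtags, was left out of the T cells after its markers were seen, and 12.7% and 13.6% of cells stayed unnamed at 18 and 2 months.

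Lymph node UMIs were summed per hashtag and cell kind and tested with edgeR 4.0.16 (quasi-likelihood, TMM, filterByExpr, hashtag as a block). All hashtags came from 1 library, and nothing says that they are separate animals, so p-values measure the spread between these cell samples. Heart ratios carry exact conditional binomial intervals at 95%, and a count of 0 was given a floor of 3 counts. The genes named are the members, the listed genes and, from the CD4 comparison, the 10 highest and 5 lowest called genes with a mean of at least 20 CPM, without receptor, immunoglobulin, mitochondrial, ribosomal and unnamed genes. The fits of Foxp3 status and of clonotype size in Foxp3-negative cells were tried on simulated counts without hashtag effects. Those of clonotype size in Foxp3-positive cells and of the difference between the ratios were not. Python 3.11.15, SciPy 1.17.1, Scanpy 1.11.5, R 4.3.3 and DESeq2 1.42.0 were used.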

Additional observations from a re-analysis of the deposited data

Results flagged for a closer look

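Tnfrsf9 in Foxp3-negative CD4-gated cells stood at 274 CPM in Hashtag2, apart from the other 7 hashtags: its gap to the next hashtag was 0.532 of the whole range, above the limit of 0.526 for 8 samples. Hashtag2 was also the highest of the Foxp3-positive cells for Tnfrsf9, at 543 CPM. In all, 20 series of 8 hashtags were looked at in this way, and chance flags about 1 in 20.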

How the results depend on the processing

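The hashtag served as the replicate block, since each hashtag gave both kinds of cell. The count of genes called between Foxp3-positive and Foxp3-negative CD4-gated cells was 241. It was 146 with DESeq2, 542 with no filter on low counts, 128 with no hashtag block, 542 when Cd4 was not required, 122 when 2 Foxp3 UMIs were required, and 178 to 231 when a hashtag was left out. Thinned with the gate also read from the thinned cells, no hashtag had 20 cells of each kind. With the gate from all UMIs, added after seeing the data, 5 hashtags gave 31 genes of 1172 tested: 5 members were called, Nrp1 was not (0.59, adjusted p = 0.451), and Il2ra, Ikzf4 and Ccr8 were too low to test. Over all T cells the count of 1717 became 401 after thinning. In the CD4 gate, 133 member values under the alternatives kept direction and call; the 8 that lost the call were all of Nrp1, including 0.63 with no hashtag block (adjusted p = 0.0822) and 0.41 at 2 Foxp3 UMIs (0.341). Over all T cells 135 of 135 kept both.

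For Foxp3-positive cells of expanded against single clonotypes, the 39 genes called became 6 with DESeq2, 138 with no filter, and 0 to 58 when a hashtag was left out. For Foxp3-negative cells, the 3 genes became 21 under the authors' cell filter, 7 by the deposited clonotype size, 5 with DESeq2, 68 with no filter, 0 with no hashtag block, 40 in the wider gate, 9 with clonotypes of at least 3 cells, and 0 to 11 when a hashtag was left out. For the difference between the 2 ratios, 3 became 1 with DESeq2, 40 with no filter, 0 with no hashtag block, and 0 to 2 when a hashtag was left out. The lower Foxp3 share of expanded clonotypes kept its direction in every alternative run, from -15.2 to -11.4 points with a hashtag left out, where the smallest exact p is 0.0625, and at -5.18 points after thinning (exact p = 0.03125). The share in CD4-gated cells was 10.0% with 2 UMIs required and 10.4% thinned.

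In heart T cells the 5 members past the fold became 3 for Hashtag11 over Hashtag10, 3 for Hashtag12 over Hashtag09, 2 for Hashtag12 over Hashtag10 and 2 in thinned cells. Those past it over Hashtag10 were Il2ra (1.92), Tnfrsf4 (2.13) and Tnfrsf18 (0.88) in Hashtag11 and Tnfrsf4 (2.82) and Tnfrsf18 (0.98) in Hashtag12, all higher at 18 months. Tnfrsf9 was at -0.56 with the mixed-lineage cluster kept and at -0.78 under a gate on UMIs, where Ikzf4 (-1.03) also passed, and Il2ra did not pass under TMM scaling (0.54). Signs turned for Il2ra without the Trdc cluster (-0.54), for Ikzf2 (0.0057) and Izumo1r (0.56) in Hashtag11 over Hashtag10, and for Foxp3 (0.76) and Izumo1r (0.44) in Hashtag12 over Hashtag10. They also turned in the 1 thinned draw for Ikzf2 (0.037) and Izumo1r (0.047). The expected values of that thinning, added after seeing the draw, were -0.75 and -1.40. The cause of the turn was not tested. In ILC2 the 1 member past the fold became 5 under a gate on UMIs, where Ccr8 turned to 0.96, 0 with Scrublet doublets kept, 2 for Hashtag11 over Hashtag10 (Il2ra and Ikzf2, higher), 2 for Hashtag12 over Hashtag09 (Nrp1 and Ccr8, lower) and 0 in thinned cells. For Hashtag12 over Hashtag10 the 1 member was Tnfrsf18 (0.97), and Nrp1 turned to 0.019 in Hashtag11 over Hashtag10. The gate on UMIs for ILC2 also took in cells outside the ILC2 cluster. The cause of the other changes was not tested. Depth limits Foxp3, Tnfrsf9, Ikzf4 and Ccr8 in heart T cells and Il2ra in expanded clonotypes, which rest on few UMIs.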
